A study of Mus musculus with 6 samples.

Results

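The genes described here are 10 core genes of the Notch pathway: the receptor genes Notch1, Notch2, Notch3 and Notch4, the ligand genes Jag1 and Dll1, and the transcriptional repressor genes Hes1, Hes5, Hey1 and Hey2. They were chosen by gene symbol, as pathway genes of glial progenitors and astrocytes, and each symbol matched 1 of the 46983 annotated features in the deposited table. RNA came from oligodendrocytes isolated fresh from the brains of mice of a FvB/C57BL6 hybrid background, without culture. There were 3 WT control libraries and 3 Qk-KO libraries. Qk-KO mice (genotype Qk-/- in the labels) carried Plp-CreERT2, a tamoxifen-inducible Cre recombinase under the Plp promoter of the oligodendrocyte lineage, and 2 floxed Qk alleles (QKLoxP/LoxP). Qk encodes quaking, an RNA-binding protein of myelinating glia. Mice of both groups received tamoxifen at 8 weeks of age and brains were collected 4 days later. The labels do not say whether the controls carried Cre or a floxed allele, nor whether each library is a separate animal. A p-value here therefore measures only how far these libraries differ, which may be technical.

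Notch receptors are single-pass membrane proteins that bind ligands of the Delta-like (Dll) and Jagged (Jag) families on neighbouring cells. Binding leads to cleavage of the receptor by ADAM proteases and gamma-secretase, and the released intracellular domain enters the nucleus and joins the DNA-binding protein RBPJ, which switches on Hes and Hey genes. In the brain, Hes1 and Hes5 are known as targets in neural progenitors, astrocytes and oligodendrocyte precursors, where Notch activity holds back differentiation. Notch3 is best known in the mural cells of vessels, and Notch4 and Dll4 in endothelium.

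RBPJ binds DNA at sequences of the form GTGGGAA, and the start regions of the target genes show how such letters are placed. Windows from 250 bases before to 10 bases after the transcription start were taken from a table of RefSeq start regions (GRCm38.p6), and 9 windows for 8 of the 10 members were searched. Hes1 and Hey1 were not analysed here. GTGGGAA was searched on both strands, with no other motif counted, and was found in 2 of the 9 windows, those of Hes5 and Hey2. It occurred in 5.58% of all 32851 windows of this length and at least 2 times in 0.186% of them. The windows of Hes5 and Hey2 each held it 2 times and are shown because these genes are the direct readouts of the pathway described below, with the motif in capitals (TTCCCAC is the motif on the other strand):
Hes5: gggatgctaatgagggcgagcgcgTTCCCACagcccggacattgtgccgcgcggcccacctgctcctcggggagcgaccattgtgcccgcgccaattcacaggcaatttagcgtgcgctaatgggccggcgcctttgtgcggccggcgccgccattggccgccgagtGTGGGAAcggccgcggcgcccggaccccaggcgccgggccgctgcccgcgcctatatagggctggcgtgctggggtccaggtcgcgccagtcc
Hey2: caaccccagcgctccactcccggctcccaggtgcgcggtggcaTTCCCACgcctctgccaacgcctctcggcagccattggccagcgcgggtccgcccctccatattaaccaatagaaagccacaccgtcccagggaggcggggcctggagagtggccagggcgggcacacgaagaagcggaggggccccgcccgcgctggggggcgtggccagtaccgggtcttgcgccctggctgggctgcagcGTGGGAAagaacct
The Hes5 window lies at chr4:154960673-154960932 on the plus strand, and its motifs begin 226 and 83 bases before the start. That of Hey2 lies at chr10:30842774-30843033 on the minus strand, with motifs beginning 207 and 4 bases before the start. A match is a description of the letters only. Among other Notch target genes, the windows of Nrarp and Hes6 did not hold these letters and that of Hes7 held them once, and Heyl was not searched.

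All values are regularized log2 values per library, that is, log2 counts scaled for depth by the authors and shrunk toward each gene's average at low depth. Normalized counts and approximate reads of single libraries are these values turned back from log2, so they carry the same shrinkage. A change is the Qk-KO mean minus the WT mean on this scale, ± its standard error (SE), and a gene is called when limma's Benjamini-Hochberg adjusted p is under 0.05 over the 15153 features whose mean normalized count reached 20. All 10 members passed this filter. Qk itself was 15.41, 15.67 and 15.31 in WT against 16.10, 15.62 and 15.30 in Qk-KO replicates 1, 2 and 3, and was not called (0.21 ± 0.25, limma adjusted p = 0.567). Exons outside the floxed stretch can still be transcribed, so this whole-gene value does not check the labels. Qk-KO replicates 2 and 3 stood apart from the other libraries: 4 ribosomal RNA features made up 2.23% and 1.88% of their signal against 59.8% to 64.8% elsewhere, and they held 70000000 to 77100000 approximate reads outside those features against 8700000 to 13100000. The result of each member is therefore also given for Qk-KO replicate 1 alone against the 3 WT libraries, all of the high-ribosomal kind. That contrast takes the spread of the lone library to equal that of WT. Scaling by library total, in which the ribosomal reads count, raised the median change of all genes over the 6 libraries by 1.06. Every direction below therefore holds for the authors' scaling, in which the median gene barely moves. Total scaling was not run on Qk-KO replicate 1 against WT alone, where ribosomal shares were close (59.8% against 63.2% to 64.8%).

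Notch receptor and target genes were lower in Qk-KO and one ligand gene, Dll1, was higher. Of the 10 members 9 fell and 1 rose, where 14.8% of all tested features were called lower and 13.8% higher (28.6% in all), although with scaling by library total 0 of the 10 were called lower and the changes of Notch1, Notch4, Jag1, Hes1, Hey1 and Hey2 turned positive. In that scaling 1 member, Hes5, was lower at an unadjusted limma p under 0.05. This scaling moves the change of every gene by the same amount, so places relative to the median gene cannot differ between the scalings. The median change of the members was -1.02, against 0.03 for all features tested. In each of the 10 the WT and Qk-KO values did not overlap, 9 lower and 1 higher, as in 46.3% of all tested features (21.8% lower and 24.5% higher). The authors' deposited table also called 9 lower and 1 higher, where it called 14.2% and 13.7% of features (27.9% in all). In Qk-KO replicate 1 against WT 7 members were called lower and none higher (limma), against 9.37% and 6.17% of features (15.5% in all), with 8 lower and 1 higher at an unadjusted p under 0.05. The 3 members without a call there were Notch1, Hey2 and Dll1.

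**Figure D1:**
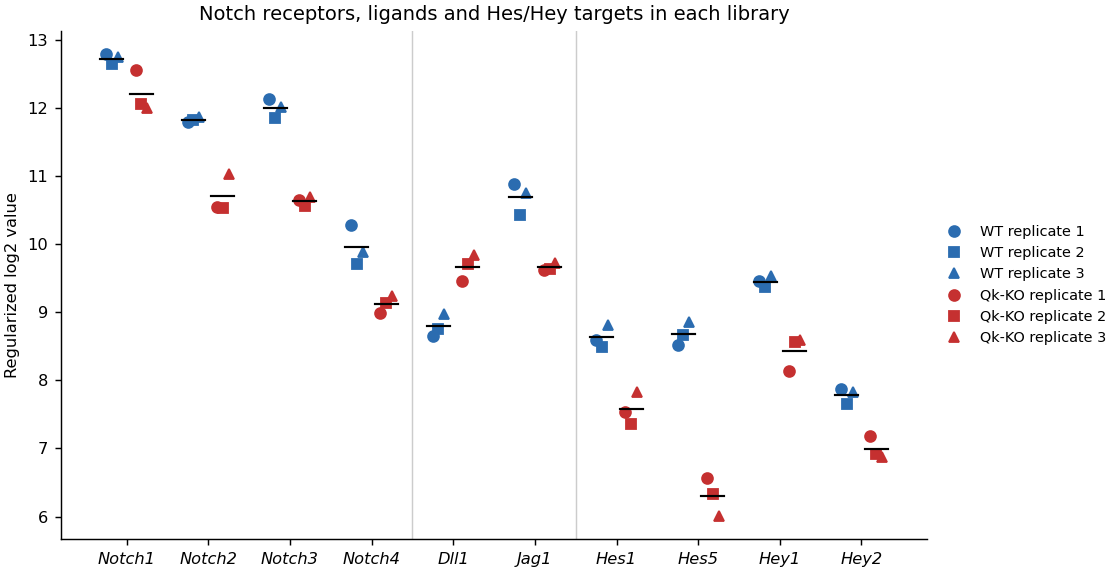
Regularized log2 value (vertical axis) of the 4 receptor, 2 ligand and 4 target genes in each library, blue for WT and red for Qk-KO with symbols for replicates 1 to 3 and black bars for group means. Dll1 is higher in the Qk-KO libraries and the other genes are lower, as scaled by the authors. With scaling by library total the Qk-KO means of 6 of the 9 lower genes exceed their WT means. Hes5 has the widest gap, from 8.52 to 8.86 in WT and from 6.01 to 6.57 in Qk-KO.

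Among the receptors, the fall was widest for Notch3 and narrowest for Notch1. Notch3 (ENSMUSG00000038146.7, chromosome 17, 32120820 to 32166852, minus strand, mm10) had log2 values of 12.14, 11.85 and 12.01 in WT replicates 1, 2 and 3 and of 10.65, 10.56 and 10.69 in Qk-KO replicates 1, 2 and 3. The 3 Qk-KO libraries lay close together and more than 1 log2 unit under the lowest WT library. Its change was -1.37 ± 0.11 (SE, limma adjusted p = 0.000204), which is 2.58-fold lower on this scale, and it was -1.35 in Qk-KO replicate 1 against WT (limma adjusted p = 0.00158). Notch2 (chromosome 3, 98013527 to 98150361, plus strand), a receptor of astrocytes and several other cell types, had log2 values of 11.79, 11.82 and 11.86 in WT against 10.55, 10.53 and 11.03 in Qk-KO. The WT libraries were nearly equal, and Qk-KO replicate 3 was the highest of its group. The change of Notch2 was -1.12 ± 0.15 (limma adjusted p = 0.00151), and -1.27 in Qk-KO replicate 1 against WT (limma adjusted p = 0.000989).

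Notch4 (chromosome 17, 34564268 to 34588503, plus strand), the endothelial receptor, had log2 values of 10.28, 9.71 and 9.89 in WT against 8.99, 9.14 and 9.24 in Qk-KO. WT replicate 1 was high within its group, and the groups did not overlap. The change was -0.84 ± 0.16 (limma adjusted p = 0.0077), or -0.98 in Qk-KO replicate 1 against WT (limma adjusted p = 0.0272). Notch1 (chromosome 2, 26457903 to 26516663, minus strand), the receptor of neural progenitors and also of endothelium, had log2 values of 12.79, 12.64 and 12.75 in WT against 12.56, 12.06 and 12.001 in Qk-KO. Qk-KO replicate 1 lay just under the lowest WT library, while replicates 2 and 3, the libraries with little ribosomal RNA, lay lower. The change of Notch1 was -0.52 ± 0.16 with a limma adjusted p of 0.0477, but only -0.17 in Qk-KO replicate 1 against WT (limma adjusted p = 0.469) and with library type in the model (limma adjusted p = 0.439). The call of Notch1 was also lost without a filter on low values (limma adjusted p = 0.0962), without WT replicate 1, 2 or 3 (0.14, 0.0827 and 0.131) and without Qk-KO replicate 2 or 3 (0.165 and 0.108). In the authors' deposited table the changes of Notch1, Notch2, Notch3 and Notch4 were -0.57, -1.28, -1.62 and -1.05, with adjusted p-values from 2.88e-22 to 0.0285.

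The ligand genes moved in opposite directions. Jag1 (chromosome 2, 137081456 to 137116644, minus strand), a Jagged ligand of vessel walls and glia, had log2 values of 10.88, 10.43 and 10.75 in WT against 9.62, 9.64 and 9.72 in Qk-KO. The Qk-KO libraries hardly differed from each other. Jag1 fell by 1.03 ± 0.14 (limma adjusted p = 0.00143), with -1.07 in Qk-KO replicate 1 against WT (limma adjusted p = 0.0103). Dll1 (chromosome 17, 15367354 to 15376872, minus strand), a Delta-like ligand, had log2 values of 8.64, 8.76 and 8.97 in WT against 9.46, 9.71 and 9.84 in Qk-KO. Every Qk-KO library was above every WT library. Dll1 rose by 0.88 ± 0.15 (limma adjusted p = 0.00407), which is 1.84-fold on this scale, and its change was 0.67 in Qk-KO replicate 1 against WT (limma adjusted p = 0.0563). It remained called with scaling by library total, which raises every change (1.94, limma adjusted p = 0.0186). With library type in the model the change of Dll1 was again 0.67. That model also rests on Qk-KO replicate 1, the only Qk-KO library of the WT kind, and is not separate support. The authors' deposited table gave 1.10 ± 0.22 for Dll1 and -1.25 ± 0.19 for Jag1. Of the exonic bases of Dll1, 20.5% are shared with A930024N18Rik, a noncoding RNA gene on the opposite strand, and whether reads were counted by strand is not given in the sources used here. A930024N18Rik was not called (-0.14, limma adjusted p = 0.508) and its mean normalized count was 48.3, against 647.9 for Dll1.

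**Figure D2:**
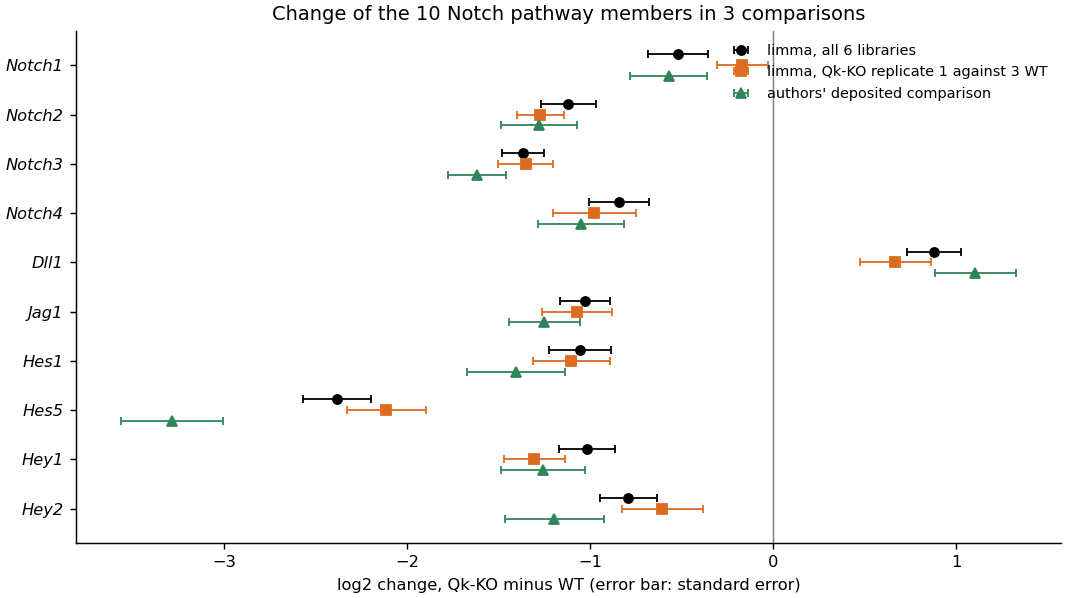
Change in log2 units (horizontal axis, Qk-KO minus WT, error bars SE) of the 10 genes in the fit of all 6 libraries, in Qk-KO replicate 1 against WT, and in the authors' deposited comparison. Dll1 lies right of 0 and the other genes left of it in all 3 comparisons. In the fit of all 6 libraries, 6 of those 9 turn positive with scaling by library total. Notch1 lies nearest to 0, at -0.17, in Qk-KO replicate 1.

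Hes5 had the largest change of the 10. Hes5 (ENSMUSG00000048001.7, chromosome 4, 154960923 to 154962371, plus strand), a basic helix-loop-helix repressor and a direct target of Notch in progenitors and glia, had log2 values of 8.52, 8.67 and 8.86 in WT against 6.57, 6.32 and 6.01 in Qk-KO. The highest Qk-KO library lay far under the lowest WT library. The change was -2.38 ± 0.19 (limma adjusted p = 0.000151), or 5.22-fold lower on this scale, and -2.11 in Qk-KO replicate 1 against WT (limma adjusted p = 0.00103). In the authors' deposited table, whose fold changes are not pulled toward the gene's mean in the same way, it was -3.28 ± 0.28. Estimated from the shrunken values, about 185 to 207 reads stood behind the WT values of Hes5. For Qk-KO replicates 1, 2 and 3 the estimates were about 59, 333 and 244 reads. None of these estimates was at the floor of detection, though shrinkage toward the gene's average can raise a low value. With scaling by library total the change was -1.32 and not called (limma adjusted p = 0.0905). Of the exonic bases of Hes5, 31.8% are shared with Gm20421 on the opposite strand, which was listed at 0 in every library.

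Hes1 (chromosome 16, 30064384 to 30067796, plus strand), a relative of Hes5 that also responds to other signals, had log2 values of 8.59, 8.49 and 8.82 in WT against 7.53, 7.37 and 7.83 in Qk-KO. The groups were well apart, with replicate 3 the highest of each. The change of Hes1 was -1.06 ± 0.17 (limma adjusted p = 0.00328), and -1.10 in Qk-KO replicate 1 against WT (limma adjusted p = 0.0136). Hey1 (chromosome 3, 8663359 to 8667256, minus strand), a target known from vessels and progenitors, had log2 values of 9.45, 9.36 and 9.53 in WT against 8.14, 8.56 and 8.59 in Qk-KO. Qk-KO replicate 1 was the lowest library. Hey1 changed by -1.02 ± 0.15 (limma adjusted p = 0.00237), and by -1.30 in Qk-KO replicate 1 against WT (limma adjusted p = 0.0027). Hey2 (chromosome 10, 30832359 to 30842801, minus strand), a relative of Hey1 and the least abundant of the 10 genes, had log2 values of 7.87, 7.64 and 7.83 in WT against 7.18, 6.93 and 6.87 in Qk-KO. The groups were separate by less than 0.5 log2 units. Hey2 changed by -0.79 ± 0.16 (limma adjusted p = 0.00788), but by -0.60 in Qk-KO replicate 1 against WT (limma adjusted p = 0.115), and it was not called with library type in the model (limma adjusted p = 0.0856). The authors' deposited table gave -1.40 ± 0.27 for Hes1, -1.26 ± 0.23 for Hey1 and -1.19 ± 0.27 for Hey2.

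Differences between members within a library are not changed by a shift of the whole library, as in scaling by library total. Shrinkage, which depends on depth and on the gene, still enters them. In this way 4 pairs of related genes were compared, chosen after the values were seen and given without a test. Hes5 minus Hes1 was -0.07, 0.18 and 0.04 log2 units in WT and -0.96, -1.04 and -1.82 in Qk-KO, so the near-equal counts of both genes in WT gave way to lower counts of Hes5 in each Qk-KO library. Dll1 minus Jag1 was -2.24, -1.68 and -1.78 in WT against -0.16, 0.07 and 0.12 in Qk-KO. The deficit of Dll1 against Jag1 was thus smaller in each Qk-KO library than in any WT library, also with scaling by library total. Dll1 was still just below Jag1 in Qk-KO replicate 1. Notch3 minus Notch1 went from between -0.79 and -0.65 in WT to between -1.91 and -1.31 in Qk-KO. Hey1 minus Hey2 overlapped between the groups, with 1.58 to 1.72 in WT and 0.96 to 1.71 in Qk-KO.

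Per kilobase of exon, Notch3 and Notch1 were the most abundant members in WT and Hey2 the least. These levels are regularized log2 values turned back to a count scale and divided by the length of the merged exons in GENCODE M21 (mean ± SD, n = 3 libraries). Shrinkage toward each gene's average enters them, so the SDs and the places of neighbouring genes may differ from those of unshrunken counts. Notch3 stood at 508 ± 49.4 and Notch1 at 476 ± 25.1, with overlapping libraries. Next came Notch2 at 336 ± 8.96, Hes5 at 303 ± 35.4 and Jag1 at 285 ± 43.9. Of these, Hes5 overlapped both Notch2 and Jag1, and Jag1 did not overlap Hey1. Hey1 at 214 ± 11.9 and Hes1 at 196 ± 23.5 overlapped too, as did Notch4 at 126 ± 26.2 and Dll1 at 106 ± 12.4, and Hey2 was at 48.1 ± 3.97. In Qk-KO the order changed at both ends. Notch1 led with 337 ± 75.0, followed by Notch3 at 196 ± 9.23 and, overlapping it, Dll1, which went from place 9 to place 3 with 194 ± 25.6. Hes5 went from place 4 to place 9, at 58.6 ± 11.3.

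**Figure D3:**
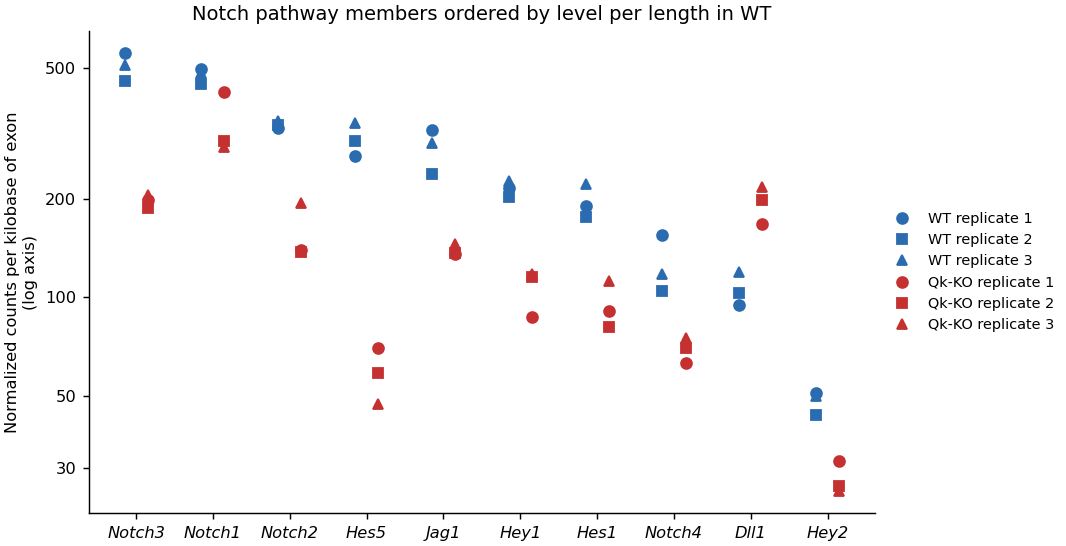
Normalized counts, turned back from the regularized log2 values, per kilobase of merged exon (vertical axis, logarithmic) for the 10 genes in order of their WT mean. Each library is a point, blue for WT and red for Qk-KO, shaped by replicate. Dll1 is the only gene whose Qk-KO points lie above its WT points, as scaled by the authors. With scaling by library total the Qk-KO log2 means of Notch1, Notch4, Jag1, Hes1, Hey1 and Hey2 also exceed their WT means, without a call. The Qk-KO points of Hes5 lie between 47.3 and 69.8.

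The rest of the pathway did not move as one. Of 51 other pathway genes 49 were tested, 8 fell, 7 rose and 34 were not called, a median change of -0.05. Of all features 14.8% were called lower and 13.8% higher, so these counts are near the background. Of the 3 other target genes tested 2 fell. Heyl, a Hey family gene of mural cells, had log2 values of 9.43, 9.33 and 9.37 in WT against 7.65, 7.15 and 7.0 in Qk-KO. It fell by 2.11 ± 0.18 (limma adjusted p = 0.000233), with -1.73 in Qk-KO replicate 1 against WT. Nrarp, a feedback inhibitor that Notch itself induces, had log2 values of 9.97, 9.96 and 10.02 in WT against 8.56, 8.30 and 8.31 in Qk-KO, a change of -1.60 ± 0.12 (limma adjusted p = 0.000138), with -1.43 in Qk-KO replicate 1 against WT. Hes6, a relative that counters Hes1, was not called (0.14), and Hes7 was under the filter.

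Genes that act on the receptor were led by Lfng, the fringe glycosyltransferase that tunes which ligands Notch answers. Lfng had log2 values of 11.17, 11.26 and 11.03 in WT against 8.41, 8.75 and 8.95 in Qk-KO, and fell by 2.45 ± 0.16 (limma adjusted p = 8.73e-05), with -2.74 in Qk-KO replicate 1 against WT. Its relatives Mfng and Rfng were not called (-0.14 and 0.03). The O-fucosyltransferase gene Pofut1 fell by 0.54 ± 0.11 (limma adjusted p = 0.00828; -0.59 in Qk-KO replicate 1) and turned positive with scaling by library total (0.52), while the O-glucosyltransferase gene Poglut1 rose by 0.53 (limma adjusted p = 0.0172). Of 10 genes of receptor cleavage, including the ADAM proteases and gamma-secretase, only Aph1a was called, with a rise of 0.49 ± 0.11 (limma adjusted p = 0.0143), and 3 had an unadjusted p under 0.05. Of 11 genes of the RBPJ complex and its cofactors only Snw1 was called (0.56, limma adjusted p = 0.0213), and 4 had an unadjusted p under 0.05. Rbpj itself changed by 0.37 (limma adjusted p = 0.0858), and by 0.59 with a call in Qk-KO replicate 1 against WT (limma adjusted p = 0.041). Qk-KO replicate 1 against WT gave no call for Poglut1, Aph1a or Snw1 (limma adjusted p = 0.175, 0.136 and 0.233). Nor were they without WT replicate 1 (0.0689, 0.0548 and 0.0818), WT replicate 3 (0.0678, 0.0633 and 0.0591) or Qk-KO replicate 2 (0.0799, 0.0674 and 0.0887).

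Among 8 other ligands 2 rose and 2 fell. Dner, a noncanonical ligand known from neurons, rose by 0.84 ± 0.11 (limma adjusted p = 0.0012), and Dlk2 by 0.76 ± 0.19 (limma adjusted p = 0.0219). Dll4, the endothelial ligand, fell by 0.97 ± 0.18 (limma adjusted p = 0.00629), and Jag2 by 0.67 ± 0.18 (limma adjusted p = 0.0245). Scaling by library total turned Dll4 (0.08) and Jag2 (0.39) positive. In Qk-KO replicate 1 against WT Dner was called (0.74, limma adjusted p = 0.00969), and Dlk2, Dll4 and Jag2 were not (limma adjusted p = 0.266, 0.0593 and 0.0751). Dlk2, at a mean normalized count of 38.3, was not called on leaving out WT replicate 1 or 2 (0.0669 and 0.0694), Qk-KO replicate 2 or 3 (0.0763 and 0.0512) or a filter (0.0527). Jag2 was not called without WT replicate 1 or 3 (0.0656 and 0.0684), Qk-KO replicate 2 (0.0781) or a filter (0.0565).

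The ligand-processing ubiquitin ligase gene Mib2 rose by 0.49 (limma adjusted p = 0.0436), 1 of 4 such genes, and lost its call in Qk-KO replicate 1 (0.19, limma adjusted p = 0.426) or without any 1 library other than Qk-KO replicate 1 (0.0877 to 0.132). Among genes of turnover and inhibition, the deltex gene Dtx1 fell by 1.37 ± 0.15 (limma adjusted p = 0.000582) and Dtx3 by 0.54 ± 0.16 (0.0334), while the ubiquitin ligase gene Nedd4 rose by 0.73 ± 0.13 (0.00571). Scaling by library total turned Dtx3 positive (0.51). In Qk-KO replicate 1 against WT Dtx1 and Nedd4 were at -1.13 and 0.74, both called. Dtx3 lost its call in Qk-KO replicate 1 against WT (limma adjusted p = 0.0674), or on leaving out replicate 1 or 3 of WT or replicate 1 or 2 of Qk-KO (0.0904, 0.109, 0.0575 and 0.103). The receptor antagonist gene Numb was not called (-0.31, limma adjusted p = 0.0691).

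**Figure D4:**
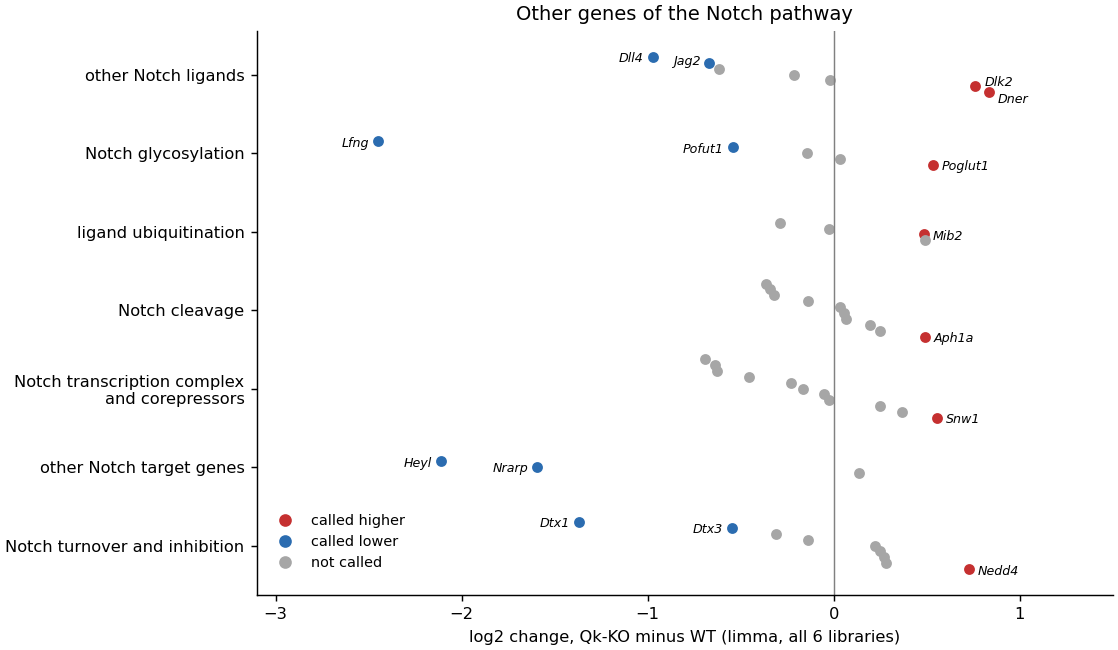
Change in log2 units (horizontal axis, Qk-KO minus WT) of 49 other tested genes of the Notch pathway by list, with called genes in red (higher) or blue (lower), others in grey, and the names of the called genes. Lfng (-2.45), Heyl (-2.11), Nrarp (-1.60) and Dtx1 (-1.37) lie farthest to the left, and of these 4 none turned positive with scaling by library total, where Dll4, Jag2, Pofut1 and Dtx3 did.

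Markers of other cell types that express these genes moved in the same libraries. In RNA from bulk samples, fewer cells of a type and less RNA per cell cannot be told apart. Of 12 astrocyte markers 11 fell and none rose (median -2.68), and their summed normalized counts were 132531 to 165377 in WT and 19415 to 30519 in Qk-KO. The most abundant of them, the glutamate transporter gene Slc1a2 and the GABA transporter gene Slc6a11, changed by -2.48 and -3.80, and the aldolase gene Aldoc by -2.38. The exception was Gfap, at 0.81 without a call (limma adjusted p = 0.0526). The authors' deposited table called Gfap higher (0.99 ± 0.31). The log2 ratio of the summed astrocyte level was -2.52, next to the changes of Hes5 (-2.38) and Notch2 (-1.12). All 12 endothelial markers fell (median -0.90), with sums of 26339 to 37117 in WT and 15447 to 17069 in Qk-KO, among them Flt1 (-1.10), Slco1a4 (-0.89) and Cldn5 (-1.01), next to Notch4 (-0.84) and Dll4 (-0.97). Of 12 mural markers 9 fell and none rose (median -0.71), with sums of 22357 to 27174 in WT and 13199 to 14466 in Qk-KO. The mural genes Rgs5 and Myh11 changed by -1.06 and -0.83, and Cspg4, which is also in the precursor list, by -0.44 without a call, next to -1.37 for Notch3, -1.03 for Jag1 and -2.11 for Heyl. With scaling by library total, a fall smaller than the 1.06 shift of the median gene turns positive, in these lists as in the members. In Qk-KO replicate 1 against WT the medians of the astrocyte, endothelial and mural lists were -2.66, -1.01 and -0.86. No marker of these lists was at 0 in the table, and their part in the changes of the Notch genes was not tested.

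Of the marker lists, that of oligodendrocytes, though not that of their precursors, had the highest sum in both groups. The astrocyte list came next in WT, at 132531 to 165377. Sums over unlike lists do not measure the share of each cell type. Summed normalized counts of 9 oligodendrocyte markers, among them Mbp and Cnp, were 241511 to 315001 in WT and 471751 to 525875 in Qk-KO, and 6 of 9 rose while none fell. Of 10 precursor markers 3 fell and none rose, with sums of 20631 to 33849 in WT and 8566 to 19369 in Qk-KO. Ptprz1 (-2.13), the most abundant of this list and so the heaviest in its sums, and Cspg5 (-1.75) fell. The 7 precursor markers without a call had changes from -0.44 to 0.39. Among them were Pdgfra at -0.28 and Gpr17 at 0.31 (limma adjusted p = 0.84 and 0.519). The median of the precursor list was -0.21 with all libraries and 0.46 in Qk-KO replicate 1 against WT, beside changes of Dll1 of 0.88 and 0.67. Of 10 microglia markers 4 rose and none fell, with sums of 7097 to 11512 in WT and 16422 to 59701 in Qk-KO, the highest in replicate 3. The medians of the oligodendrocyte and microglia lists were 0.85 and 1.21 with all libraries, while Qk-KO replicate 1 alone gave 0.78 and 0.82. Of 10 neuron markers 2 rose and of 8 ependymal markers 1 fell. Of all tested features 13.8% were called higher and 14.8% lower, and the neuron and ependymal counts are near these shares. The part of the cells of these lists in the rise of Dll1 was not tested.

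**Figure D5:**
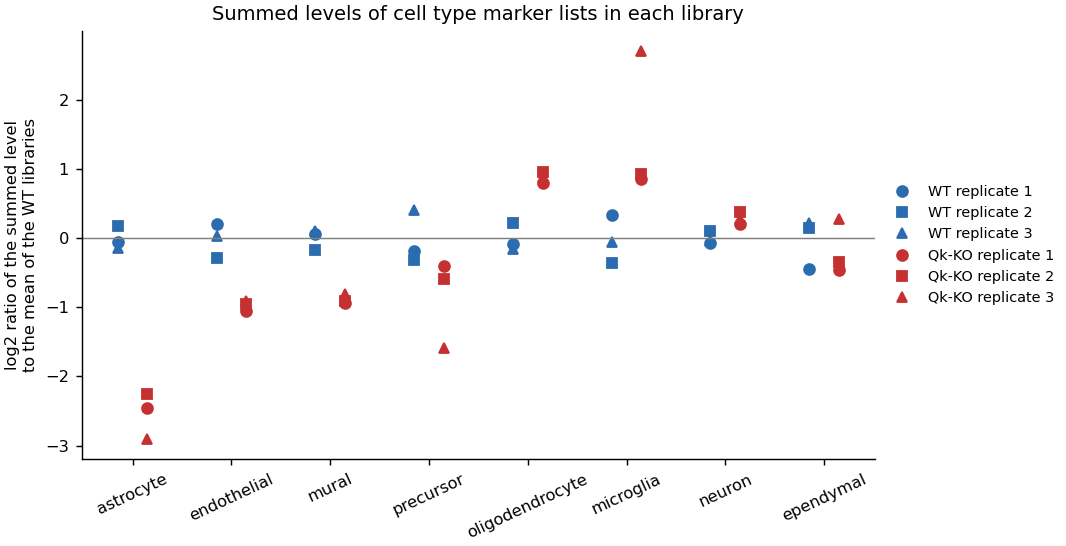
Log2 ratio of the summed normalized count of each marker list to the mean of the WT libraries (vertical axis), each library as a point, blue for WT and red for Qk-KO, shaped by replicate. Astrocyte sums lie lowest in the Qk-KO libraries, at a log2 ratio of the means of -2.52, endothelial and mural sums follow at -0.97 and -0.88, as scaled by the authors, and the microglia sum is highest in Qk-KO replicate 3.

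The sample numbers in the labels fall into a lower and a higher series, each holding both groups. In the lower series (WT replicate 1 against Qk-KO replicates 1 and 2) the change was -2.08 for Hes5, -1.53 for Notch3, -1.25 for Notch2, -1.25 for Jag1 and 0.94 for Dll1. In the higher series (WT replicates 2 and 3 against Qk-KO replicate 3) it was -2.76, -1.24, -0.81, -0.87 and 0.98. All 10 genes kept their direction in both series. As their groups do not overlap, this was certain in advance and adds no support.

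The tested genes whose log2 pattern over the 6 libraries lay nearest to each member were listed by root-mean-square distance after centring, among 13386 candidates. Distances ran from 0.0274 to 0.124 log2 units, and these values describe likeness only. The pattern of Hes5 was nearest to those of Ephb3, an Eph receptor gene, Arhgef26 and the RNA-binding protein gene Msi1. For Notch3 the nearest were Fxyd1 and the basement membrane genes Col4a2 and Nid1, and for Notch4 they were Cp, Atp10a and Rbpms. Jag1 lay nearest to Arhgef17, Utrn and the tight junction gene Ocln, Notch2 to Gstt3, Mboat7 and Serpine2, and Notch1 to Tiam1, Nt5dc3 and Nup214. Hes1 lay nearest to Cgnl1, Lrp1 and Parva, Hey1 to Abhd8, Nxn and Ampd2, and Hey2 to Etfa, Prss23 and Rnf144b. Dll1 was nearest to Josd2, Znhit2 and Selm, which rose by 0.80, 0.94 and 0.85.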

How the data were processed

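Gene-level values of 6 libraries were analysed. The authors' tools, from the submitters' processing notes, were TopHat2 2.0.14, featureCounts, DESeq2 and FastQC, on mm10. For annotation release and strandedness nothing was given in the sources read. Per the file headers, the deposited table holds per-library values on a log2 scale (regularized), a mean normalized count (a signal), a log2 fold change with its error, a Wald score, and p-values and adjusted p-values. Since the table holds no counts, limma 3.58.1 (R 4.3.3, mean-variance trend, no pseudocount, genotype only, all libraries) was fitted to the deposited log2 values, on features whose mean normalized count reached 20. Size factors were estimated from the steps of the mean normalized count: each of 4125 features at or below 1 was a sum of whole steps within 1e-06. They give approximate reads, 23600000 to 78900000 in all per library.

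In simulated data with 15153 genes, 200 genes were changed, and the real residual spread of each gene was taken as equal in all libraries. The fit called 92.2%, 63.2% and 9.09% of genes changed by 2, 1 and 0.5 log2 units, and 7.75% of its calls were unchanged genes. In the real data 28.6% of features were called, and Qk-KO replicates 2 and 3 differ from the other libraries in depth. These rates therefore need not hold for the real data. Alternatives were another filter, scaling, a replicate block, library type, sample number series, sample weights, the authors' comparison and leaving out each library. The members and gene lists were chosen with earlier results of these data known. Named genes are the members, up to 3 called genes per pathway list by adjusted p, and the most abundant markers. The 3 nearest patterns per member are also named. Jag2, Mfng, Rfng, Rbpj, Hes6, Hes7, Numb, Gfap and Pdgfra were named after their values were seen. Coordinates are from GENCODE M21 on the same build. One marker of the oligodendrocyte list is not reported here, and the counts and sums of that list leave it out.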

Additional observations from a re-analysis of the deposited data

How the results depend on the processing

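The members other than Notch1, Hey2 and Dll1 kept their direction and call in each alternative except scaling by library total. Library type in the model and Qk-KO replicate 1 against WT gave the same changes. Both rest on that Qk-KO library, so they are not separate alternatives. The count of called members was 9 lower and 1 higher with a replicate block, which changed no member's call (4345 genes called in all). Same-numbered libraries did not deviate together (correlations of 0.11, -0.01 and 0.08), so the numbers were not taken as pairs, and among the named pathway genes the block ended only the call of Mib2. In Qk-KO replicate 1 against WT 0 members were called higher (1 at an unadjusted limma p under 0.05). Called genes in all were 4330 as reported, 2258 with library type in the model, 2355 in Qk-KO replicate 1 against WT and 2447 with scaling by library total, of which 97.3% were rises against 48.2%. Leaving out 1 library gave 2370 to 5633, 8 to 9 members lower and 1 higher, and 6 to 14 lower and 2 to 7 higher other pathway genes. Those other genes were 5 lower and 4 higher with library type in the model and likewise in Qk-KO replicate 1 against WT. With scaling by library total 0 members and 0 other pathway genes were called lower (1 of each at an unadjusted limma p under 0.05; the authors' deposited table called 9 and 10), and changes turned to 0.54 for Notch1, 0.21 for Notch4, 0.029 for Jag1, 0.0012 for Hes1, 0.041 for Hey1, 0.27 for Hey2, 0.085 for Dll4, 0.39 for Jag2, 0.52 for Pofut1 and 0.51 for Dtx3. In that scaling the ribosomal reads enter the total. With 3 libraries a group an exact permutation test cannot go below a p of 0.1, so calls rest on limma's spread shared across genes.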
